A study of Mus musculus with 15 samples.

Results

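The 4 arrays of an Srf rescue line of mouse embryonic stem (ES) cells were compared with the 4 matching arrays of wild-type ES cells, 8 of the 15 arrays of the series. They are the arrays titled E100-/- rescue and E14wt after 10, 30, 60 and 180 min with fetal bovine serum (FBS), paired by time; the arrays at 0 min were left out. E14wt is a wild-type ES cell line, E100-/- is the mutant line of this series of Srf genotypes, called Srf-null here, and E100-/- rescue carries the name of the E100-/- line with the word rescue added. All 3 lines received FBS for the same times. The labels name 1 line for each genotype and give neither the construct behind the rescue nor whether the line is 1 clone, so that a difference of Srf state and a difference between lines cannot be told apart. Each line and time has 1 array of total RNA on an Affymetrix MGU74A array, on which a probe set of short oligonucleotides reads each transcript. The comparison addresses what the rescue brings back to the wild-type level, what it does not, and what sets the line apart from both others.

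SRF, the serum response factor, is a transcription factor that binds the CArG box, a short A/T-rich element between CC and GG. With the ternary complex factors it drives immediate-early genes such as Egr1 and Fosb soon after serum is added, and with the myocardin-related factors MRTF-A and MRTF-B it drives genes of the actin cytoskeleton such as Acta2, Actg1, Tagln, Cnn2 and Vcl. In ES cells SRF is known for its role in cell spreading, adhesion and mesoderm formation, while self-renewal does not require it. No probe set of the table was assigned to Srf (0 probe sets), so the targeted gene could not be read in any line.

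The levels below are intensities after all 15 arrays were given the same distribution (quantile normalization), with 85.0 as the floor under which a value was not told from background. Values below the floor have no order, and a fold that starts from them is a lower limit. The 8 arrays had 24.9% to 27.5% of values at or below 0, except the rescue array at 10 min with 37.4%. The 18S ribosomal RNA control was high (21819 or more) on wild-type at 30 and 180 min and rescue at 180 min. It was low (2318.2 or less) on the others, a split called the 18S side below. Before normalization the trimmed mean was 578 and 452 on wild-type at 30 and 180 min, 1309 and 1438.7 at 10 and 60 min, and 821.56 to 1220.4 in rescue cells. Correlations across probe sets were 0.881 to 0.947 between wild-type arrays, 0.922 to 0.943 between rescue arrays and 0.914 to 0.94 between the lines at the same time. The 7 ES cell markers (Pou5f1, Nanog, Sox2, Zfp42, Fgf4, Utf1, Tdgf1) were above the floor on all 8 arrays, with a summed level of 69075 to 98783 in wild-type and 69777 to 88237 in rescue cells. The summed level of 7 markers of fibroblast feeders was 930.4 to 1695 in wild-type and 1064 to 1531 in rescue cells, with Col1a2 and Thy1 below the floor on every one of the 8 arrays. The array labelled wild-type at 0 min went against its label: its Acta2 (-538) and Igf2 (-1854) were below the floor, as in the Srf-null line. The array labelled rescue at 0 min had -582 and -1829 and went against its label too. It read 48.8 for Sox3 and 2769.5 for Myh9, where the later rescue arrays read 2609 to 4141 and 424 to 1127. Both 0 min arrays are outside the comparison, and their difference is not read as rescue against wild-type before serum. Of the 38 differences called below 21 had the same direction between these arrays, 14 the opposite one and 3 none. Differences are log2 values, rescue minus wild-type, averaged over the 4 times, with the standard error (SE) from a limma fit of line and time to the 12 arrays of the 3 lines at 10 to 180 min. A difference was called at an adjusted p (Benjamini-Hochberg over 9558 probe sets) under 0.05. Times stood in for replicates, so the spread includes any change of a line difference with time.

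The promoters of 3 genes that were low in the Srf-null line are shown because their rescue differs: Cnn2 and Actg1 read near wild-type in rescue cells and Acta2 did not. Each sequence is the 250 bases before the annotated start in RefSeq (GRCm38.p6), 5′ to 3′ on the strand of the gene. Capitals mark a CArG box or a match to it with 1 substitution, a box position being counted back from the start.
Acta2, chr19:34255374-34255623, minus strand: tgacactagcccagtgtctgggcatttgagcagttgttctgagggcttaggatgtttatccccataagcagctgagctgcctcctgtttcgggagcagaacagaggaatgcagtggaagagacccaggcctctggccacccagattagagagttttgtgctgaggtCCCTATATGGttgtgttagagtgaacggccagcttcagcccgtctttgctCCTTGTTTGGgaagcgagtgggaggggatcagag
Cnn2, chr10:79988350-79988599, plus strand: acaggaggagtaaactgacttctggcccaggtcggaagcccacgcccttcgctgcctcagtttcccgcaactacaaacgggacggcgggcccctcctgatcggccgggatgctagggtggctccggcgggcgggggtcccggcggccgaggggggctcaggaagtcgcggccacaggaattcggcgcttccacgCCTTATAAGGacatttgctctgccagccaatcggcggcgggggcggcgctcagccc
Actg1, chr11:120348496-120348745, minus strand: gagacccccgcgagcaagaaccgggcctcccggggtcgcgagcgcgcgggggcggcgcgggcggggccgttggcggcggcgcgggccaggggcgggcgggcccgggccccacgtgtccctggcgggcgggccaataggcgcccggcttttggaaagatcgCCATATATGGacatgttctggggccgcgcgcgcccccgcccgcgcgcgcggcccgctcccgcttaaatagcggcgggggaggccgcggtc
Cnn2 held 1 full box that begins 56 bases before the start and Actg1 held 1 that begins 90 bases before it. Acta2 held no full box in this window and 2 matches with 1 substitution, beginning 84 and 34 bases before the start. Both strands were searched in windows of 300 bases that also hold 50 bases after the start. A full box was present in 11 of 51 promoters of the actin cytoskeleton list (21.6%), against 1.81% of the 27025 genes with a promoter in the RefSeq table. With 1 substitution allowed the shares were 33.3% and 11.3%. Among the genes called lower in rescue cells 0 of 17 with a promoter had a full box and 2 (11.8%) had one with 1 substitution allowed. Among those called higher 0 of 10 had a full box and 1 (10%) had one with 1 substitution. A match is a description of these letters and not of binding.

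Most transcripts that were low in the Srf-null line stood near the wild-type level in the rescue line. The Srf-null line differed from wild-type at 31 probe sets (0.324% of 9558), 21 lower and 10 higher. The median rescue difference was 0.09 over the 21 that were lower (range -3.37 to 1.09) and 0.15 over the 10 that were higher (range -0.66 to 0.76). Both comparisons use the same wild-type arrays, so their values are given side by side and no agreement between them was taken as a result. Cnn2 encodes calponin 2, an actin-binding protein. Its levels at 10, 30, 60 and 180 min were 759.5, 518.9, 877.2 and 839.6 in wild-type, 601.5, 566.4, 961.2 and 664.4 in rescue and at most 76.0 in Srf-null cells. The wild-type and rescue arrays overlapped, and the difference was -0.10 with a 95% interval of -0.78 to 0.57. Actg1, cytoplasmic gamma actin, read 27389.6 to 38839 in wild-type, 32948 to 41633 in rescue and 7327 to 14004 in Srf-null cells. Its difference was 0.26 (interval -0.15 to 0.67), again with overlapping groups. The interval of Fabp3, a fatty acid binding protein, was -0.33 to 0.34 around a difference of 0.00. Those of Slc25a4, the mitochondrial ADP/ATP carrier, and Fnta, the alpha subunit of protein farnesyltransferase, were -0.24 to 0.42 and -0.14 to 0.22. For Anxa1 (annexin A1, interval -1.18 to 0.97) and Lgals1 (galectin 1, -0.50 to 0.37) the arrays allowed a wider range. Chromosome 8 was lower in Srf-null cells (median -0.25 over 211 genes with a mean log2 level above 9) and near wild-type in rescue cells (-0.04). No gene named here was set against the median of its chromosome, so recovery of single genes was not separated from such a shift.

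**Figure D1:**
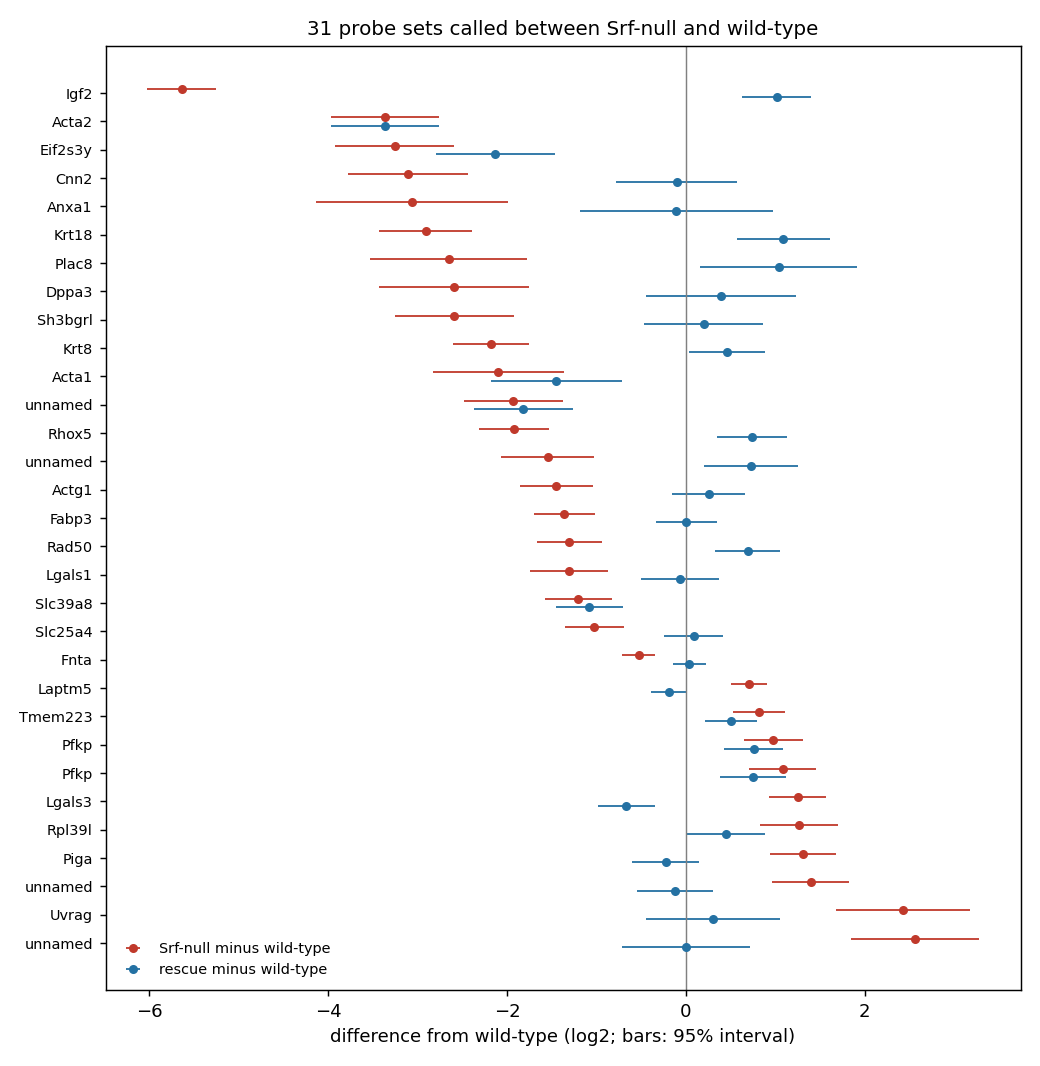
Difference from wild-type (log2, x axis) at the 31 probe sets called between the Srf-null and wild-type lines, with 95% intervals, for the Srf-null line and for the rescue line. Most rescue points lie near 0, with a median of 0.09 for the 21 that were lower in Srf-null cells, while Acta2 at -3.37 has the same place in both lines.

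Egr1 and Fosb, immediate-early genes that SRF is known to control, read high at 60 and 180 min in the rescue line as in wild-type cells, while Egr2, another, did not follow this pattern. Egr1, an immediate-early zinc finger factor, read 502.6, 1515, 9120.2 and 17551 in wild-type and 881.9, 1208, 8094 and 13748 in rescue cells at 10, 30, 60 and 180 min. In Srf-null cells it read 343, 176, 260.4 and 201. The wild-type and rescue arrays were both several times higher at 60 than at 30 min, where Srf-null arrays stayed low, and the mean difference was -0.01 (interval -1.92 to 1.90). Fosb, a subunit of the AP-1 factor, read 1250.2, 1347, 6059 and 5912 in wild-type and 1402, 1249.7, 4956 and 4685 in rescue cells, against 1311 to 1621 in Srf-null cells. Egr2, a relative of Egr1, read -249, 600.2, 1589 and 2945 in wild-type and 1549, -336, -131 and 659 in rescue cells, so that it was below the floor at 60 min and lower at 180 min in the rescue line (-1.25, adjusted p = 0.819). Fos, the partner of Jun in AP-1, stayed at 332.5 or less in wild-type and 207 or less in rescue cells. Ccn1, a matricellular protein, had a difference of -0.14 (interval -1.44 to 1.16). Ccn2, its relative CTGF, read 933, 814, 5990.3 and 9896 in wild-type and 283, 467, 2703 and 7419.8 in rescue cells. The rescue value of Ccn2 was below wild-type at each time, with a difference of -1.02 that was not called (adjusted p = 0.68, interval -2.46 to 0.42). Of 43 measured immediate-early genes 0 were called in the comparison of the lines, and the median was -0.04. At an unadjusted p under 0.05, 4 were higher and 5 lower, 20.9% of the list. Over all 6764 genes, the background of each list, 11 were called higher and 21 lower. At an unadjusted p under 0.05, 387 of them (5.72%) were higher and 349 (5.16%) lower, together 10.9%. A contrast of 30 and 60 min against 10 min between the lines passed the threshold at 48 probe sets (0.502%), 31 higher in rescue (0.324%) and 17 lower (0.178%). It sets 1 array at 10 min in each line against the spread between 30 and 60 min, and 39 of the 48 had a 10 min array at the floor, so the 48 are not read as differences in the response to serum. Genes that differ between 30 and 60 min had large errors in it (SE 2.32 for Egr1 and 2.79 for Egr2), and the contrast could not settle whether the immediate-early response differed.

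**Figure D2:**
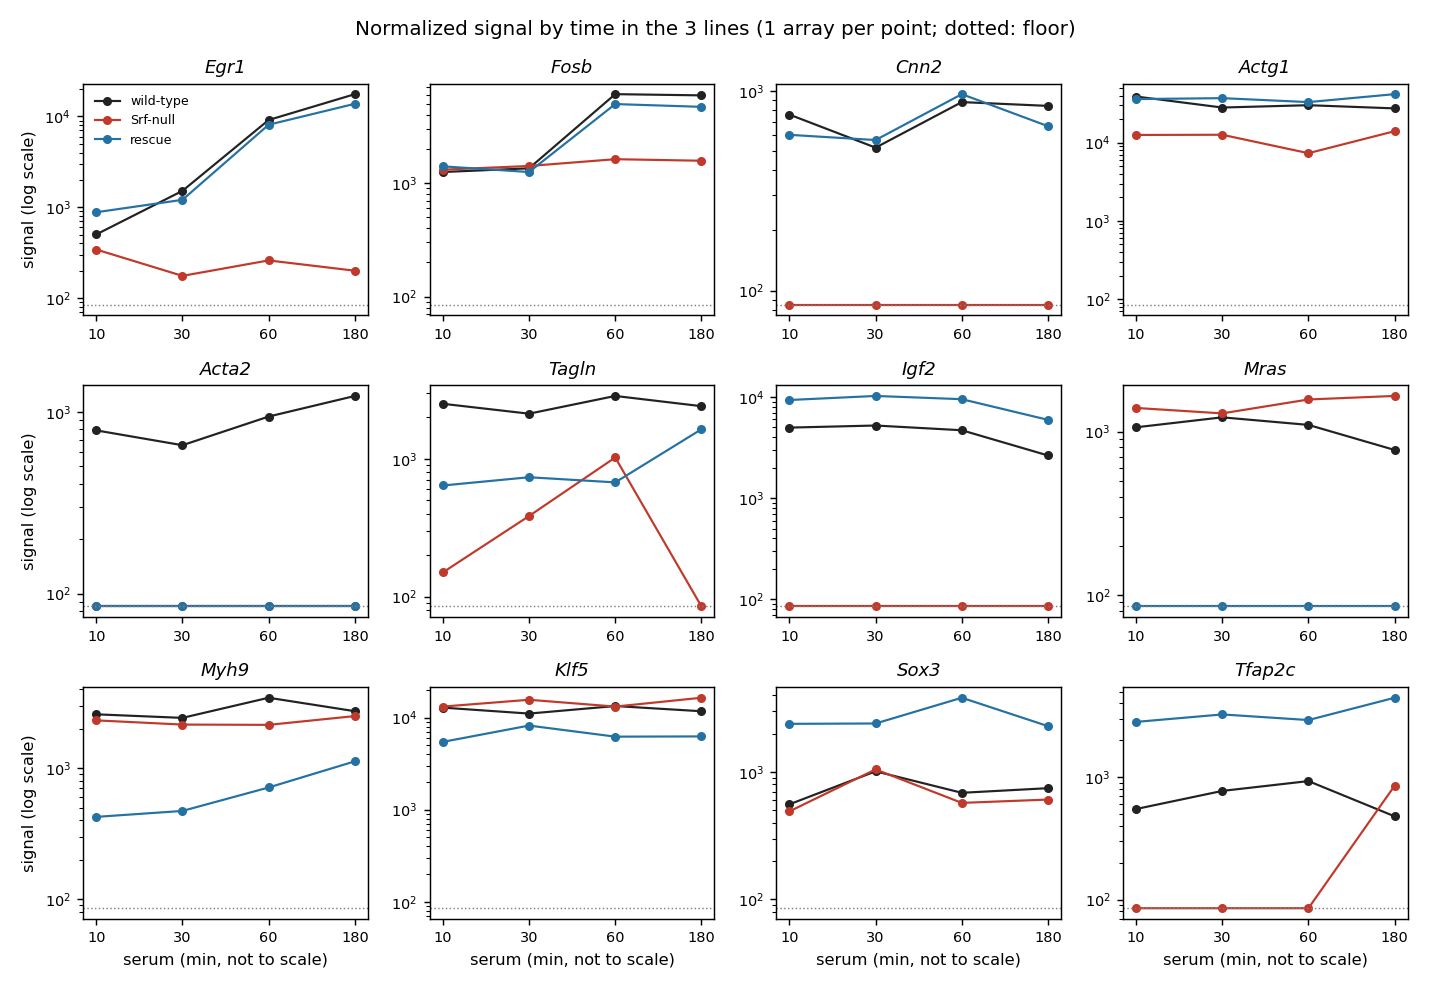
Intensity (log axis) of 12 genes at 10, 30, 60 and 180 min with FBS in wild-type, Srf-null and rescue cells, 1 array a point; the time axis is not to scale and the dotted line is the floor of 85.0. Egr1 and Fosb are highest at 60 and 180 min in wild-type and rescue cells, Acta2 lies below the floor in rescue and Srf-null cells, and Mras and Myh9 are lowest in rescue cells.

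Acta2 was not brought back, and other genes of muscle actin filaments read low in rescue cells without passing the test. Acta2, smooth muscle alpha actin, read 789.6, 654.3, 940.5 and 1221 in wild-type cells and lay below the floor on all 4 rescue and all 4 Srf-null arrays. It was at least 10.3-fold lower in rescue cells (-3.37, SE 0.26, adjusted p = 0.00222). Tagln, the actin-binding protein transgelin, read 2514, 2130.1, 2865 and 2415 in wild-type and 641.5, 736.3, 675.7 and 1642 in rescue cells. The groups did not overlap, but the difference of -1.54 was not called (adjusted p = 0.497), with the rescue array at 180 min far above the other 3. Acta1, skeletal muscle actin, read 312 to 429 in wild-type cells and was above the floor on 2 of 4 rescue arrays (-1.45, adjusted p = 0.142). Cnn1, the smooth muscle calponin, had a difference of -1.57 (adjusted p = 0.343). Of 49 measured genes of the actin cytoskeleton 2 were called, both lower (Acta2 and Myh9), and the median was -0.05. At an unadjusted p under 0.05, 4 were higher and 8 lower, 24.5% of the list against 10.9% of all genes. Vcl, vinculin, with a difference of -0.13 (interval -0.67 to 0.40), and Tpm4, a tropomyosin, with -0.18 (interval -0.87 to 0.52), had intervals that include 0.

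A contrast of wild-type against the mean of the rescue and Srf-null lines, with both lines required to differ in the same direction, found 10 probe sets (0.105%), 9 lower (0.0942%) and 1 higher (0.0105%). They stand for 7 lower genes and 1 unnamed transcript, besides Mdm4. Among the lower genes, Tsc22d1, Xpo7 and Sugt1 lie in a stretch of chromosome 14 (R3hcc1 to Sugt1) described below. Its median against wild-type was -0.34 in Srf-null and -0.61 in rescue cells. Whether these genes differ beyond that shared shift was not tested. After Acta2, the next in size was Eif2s3y, a Y-linked subunit of translation initiation factor 2. It read 1743, 2078, 1435 and 1682 in wild-type, 395, 327, 365 and 502 in rescue and 104 to 277 in Srf-null cells, with no overlap (-2.69, adjusted p = 0.0105). Its probe set is of a type that can bind related sequences, such as the X-linked copy Eif2s3x, and the signal cannot be assigned to the Y copy alone. Sat1, which acetylates spermidine and spermine, read 6697 to 7444 in wild-type, 4985 to 5618 in Srf-null and 2553 to 3475 in rescue cells (-0.82, adjusted p = 0.0105), so that the rescue line lay farther from wild-type than the null line. Tsc22d1, a leucine zipper protein induced by TGF-beta, followed the same order with -0.86 (adjusted p = 0.0427). Slc39a8, a zinc and manganese importer, was lower at a low level (169.6 to 279.7 in wild-type, 68.7 to 131.4 in rescue cells; -1.14, adjusted p = 0.0427). Xpo7, an exportin, had -0.64 (adjusted p = 0.0496) on a probe set that can also bind related sequences. Sugt1, a co-chaperone of HSP90, had -0.59 and -0.53 on its 2 probe sets. Mdm4, an inhibitor of p53, was the 1 higher gene, with 1749 to 2204 in wild-type, 2594 to 3521 in Srf-null and 3021 to 3714 in rescue cells (0.72, adjusted p = 0.0486); a dim Mdm4 probe set had a rescue difference of -0.18 (adjusted p = 0.88).

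Rescue and wild-type cells differed directly at 38 of 9558 probe sets (0.398%), 25 lower in rescue cells (0.262%) and 13 higher (0.136%). All 38 had 1 direction at the 4 times. A call needs a mean that is large against the spread over these times, so the selection made 1 direction likely. The fit borrows its spread from the Srf-null arrays. On the 8 arrays of the 2 lines alone, with 3 residual degrees of freedom, 0 were called in limma, where 1022 had an unadjusted p under 0.05 and the smallest adjusted p was 0.183. Scaling the arrays to a common median left 4 calls, and the deposited values without normalization left 0, with 318 at an unadjusted p under 0.05. Under each of these the 38 kept their direction, on arrays that had also selected them. Leaving out 1 wild-type or rescue array at a time left 4 to 21 calls, the fewest without wild-type at 60 min and the most without rescue at 180 min, and leaving out 1 Srf-null array left 12 (30 min) to 34 (60 min).

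**Figure D3:**
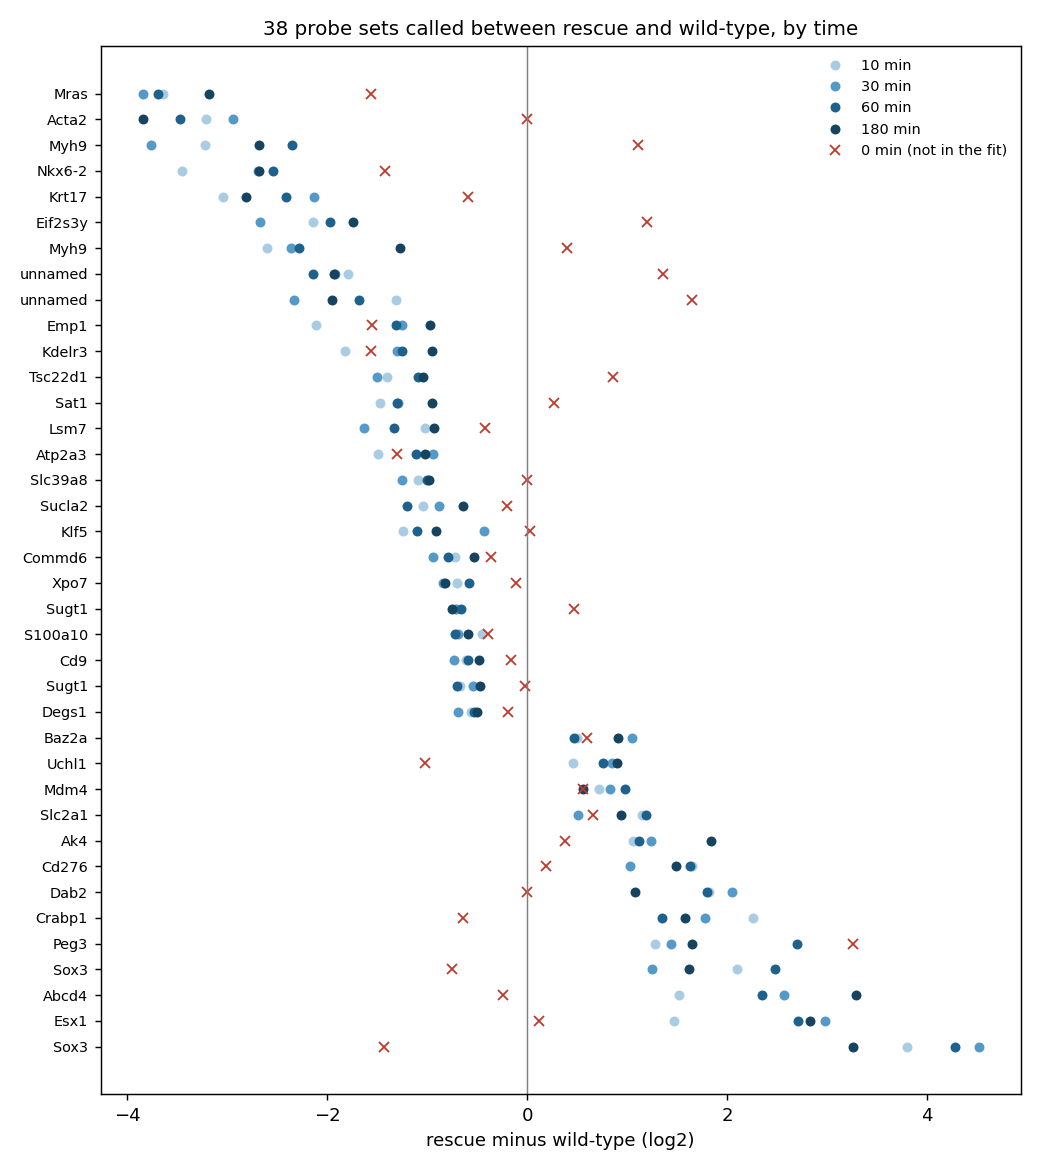
Rescue minus wild-type difference (log2, x axis) of the 38 called probe sets at 10, 30, 60 and 180 min (dots). Crosses give the difference between the arrays labelled 0 min, which went against their labels and entered no test. The dots of each probe set lie on 1 side of 0, while the crosses of 14 probe sets lie on the other side.

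The largest loss in the rescue line was of Mras, a Ras-family GTPase that works with SHOC2 and PP1 to activate RAF kinases. It read 1063, 1224, 1099.8 and 772.3 in wild-type and 1294 to 1654 in Srf-null cells, and lay below 0 on all 4 rescue arrays. Rescue cells were at least 12.1-fold lower (-3.59, SE 0.25, adjusted p = 0.00222). Myh9 encodes the heavy chain of non-muscle myosin IIA, the main motor of contractile actin bundles. Its first probe set read 2578, 2421, 3451 and 2723 in wild-type, 2141 to 2499 in Srf-null and 424, 470.8, 711.3 and 1127 in rescue cells. The rescue arrays were all below both other lines (-2.13, SE 0.23, adjusted p = 0.013). Another Myh9 probe set, of the type that can bind related sequences, had -3.00 (adjusted p = 0.0323). Nkx6-2, a homeobox factor of neural progenitors, read 495.9 to 928.9 in wild-type cells and was above the floor on 1 of 4 rescue arrays (-2.84, adjusted p = 0.00829). Krt17, a type I keratin, fell by 2.60 (adjusted p = 0.0164) on 1 probe set, while the other had -1.57 with an adjusted p of 0.462. Emp1, an epithelial membrane protein, fell by 1.41 and Kdelr3, a receptor that returns proteins to the endoplasmic reticulum, by 1.33. Atp2a3, the calcium pump SERCA3, fell by 1.14 on 1 probe set, while a dimmer one had -0.03 (adjusted p = 1), and Lsm7, a subunit of the Lsm ring on U6 and decaying mRNA, by 1.23. S100a10, the partner of annexin A2, and Degs1, a ceramide desaturase, fell by 0.61 and 0.57. The 2 other called probe sets that fell by more than 1.5 had no gene name (-1.94 and -1.82).

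The largest gain was of Sox3, an X-linked SOXB1 factor of neural progenitors that is related to Sox2. On 1 probe set it read 194, 119.6, 212 and 272 in wild-type, 110.9 to 268 in Srf-null and 2714, 2744, 4141 and 2609 in rescue cells, or 15.6-fold higher (3.97, SE 0.39, adjusted p = 0.00827). A second Sox3 probe set rose by 1.86 (adjusted p = 0.02), and another did not pass the filter on low values. Peg3, a paternally expressed zinc finger gene, read 698 to 995.2 in wild-type and 2412, 2505, 5837 and 2199.7 in rescue cells (1.77, adjusted p = 0.0335). Another Peg3 probe set had 2.46 with an adjusted p of 0.474. The rescue array at 60 min stood above the other 3 for both Sox3 and Peg3, and the groups did not overlap without it either. Esx1, an X-linked homeobox gene of the placenta, rose by 2.50 (adjusted p = 0.0369), from 29 to 144 in wild-type to 398 to 872 in rescue cells. It was above the floor on 2 of 4 wild-type arrays. Srf-null cells read 226 to 488 for Esx1, and rescue minus Srf-null was 0.71 and not called (limma adjusted p = 0.457). Abcd4, a transporter in the vitamin B12 pathway, rose by 2.43 from a level at which 2 of 4 wild-type arrays were at the floor. Crabp1, which binds retinoic acid, was below the floor on all 4 wild-type arrays and at 216.3 to 407 in rescue cells, at least 3.35-fold higher. Dab2, an endocytic adaptor, was called on 1 of its 3 probe sets (1.69, adjusted p = 0.02), which was below the floor on all 4 wild-type arrays. On the other two it was above the floor on most or all wild-type arrays, with differences of 0.75 (adjusted p = 0.771) and 0.52 (adjusted p = 0.754). Cd276, the immune ligand B7-H3, rose by 1.45, Uchl1, a ubiquitin hydrolase, by 0.74 and Baz2a, a subunit of a nucleolar remodelling complex, by 0.74.

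Genes of the ES cell state were mixed. Pou5f1 had a difference of 0.02 and Sox2 of -0.01, while Nanog had -0.48 (adjusted p = 0.556). Klf5, a factor of naive pluripotency, read 11074 to 13373 in wild-type and 5452 to 8203 in rescue cells (-0.92, adjusted p = 0.0361). The tetraspanin Cd9 read 10494 to 11831 and 6315 to 8496 (-0.60, adjusted p = 0.0228). Gbx2, a homeobox factor downstream of LIF, was at 919.2 to 2173 in wild-type and 338 to 611 in rescue cells, without overlap, and was not called against wild-type alone (-1.84, adjusted p = 0.0528). Of 39 measured genes of this list 2 were called, both lower, and 12 were lower and 1 higher (Kit) at an unadjusted p under 0.05, with a median of -0.23. Klf4 with -0.58 and Fgf4 with -0.39 were among the 12. The same counts over all 6764 genes were 349 lower (5.16%) and 387 higher (5.72%), with a median of 0.00.

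The trophoblast and the glycolysis and hypoxia lists held higher members only, at an unadjusted p under 0.05. The endoderm and feeder lists did too, with 2 each. Of 23 measured trophoblast genes 9 were higher and 0 lower at an unadjusted p under 0.05, with a median of 0.19, and 1 was called (Esx1). The 9 include Rhox6 and Gata3, which were below the floor on all 4 wild-type arrays and above it on 3 of 4 rescue arrays. Such genes could only read higher in rescue cells, so the split by direction is not evidence of its own. Tfap2c, an AP-2 factor of trophoblast and germ cells, read 479 to 929.1 in wild-type and 2829 to 4457 in rescue cells, without overlap (2.33, adjusted p = 0.248). Krt19, a keratin of simple epithelia, had 2.46 (adjusted p = 0.0657) and its relative Krt18 1.09 (adjusted p = 0.121). Other members had differences below 0, among them Gata2 and Ets2 (-0.65 each), Plac1 (-0.49) and Id2 (-0.48), none of them called. Of the defining trophoblast markers, Hand1 was below the floor on all 8 arrays and Cdx2 on 7 of 8. Eomes was above it on all 8, with a difference of -0.27 (adjusted p = 0.889). The summed level of the 4 markers was 761.2 to 1211 in wild-type and 3213 to 4578 in rescue cells, most of it Tfap2c. Whether other cell types had a part in these differences was not tested, and in bulk RNA fewer cells of a type and less RNA per cell cannot be told apart. Of 29 measured genes of glycolysis and hypoxia 11 were higher and 0 lower at an unadjusted p under 0.05, with a median of 0.16. The list median was 0.21 for Srf-null minus wild-type and 0.08 for rescue minus Srf-null cells, so the shift was not particular to the rescue line. The 2 called were the glucose transporter Slc2a1, at 2179 to 3189.5 in wild-type and 4554 to 5029 in rescue cells (0.95, adjusted p = 0.0301), and the adenylate kinase Ak4 (1.32, adjusted p = 0.02). Pfkp, a phosphofructokinase, had 0.75 (adjusted p = 0.134) and the glucose transporter Slc2a3 had 0.35 (adjusted p = 0.181). Imprinted genes went both ways. Of 25 measured, 6 were higher and 3 lower at an unadjusted p under 0.05 (36%, against 10.9% of all genes), with Peg3 called and a median of 0.04. Igf2, the fetal growth factor, read 4981, 5223, 4690.1 and 2640.4 in wild-type and 9338, 10240.1, 9513 and 5942 in rescue cells, higher in rescue at each time (1.02, adjusted p = 0.058), and lay below 0 on every Srf-null array. Sgce, next to Peg10 in an imprinted cluster, had 1.32 (adjusted p = 0.123), and Phlda2, a maternally expressed placental gene, had -0.91 (adjusted p = 0.186).

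**Figure D4:**
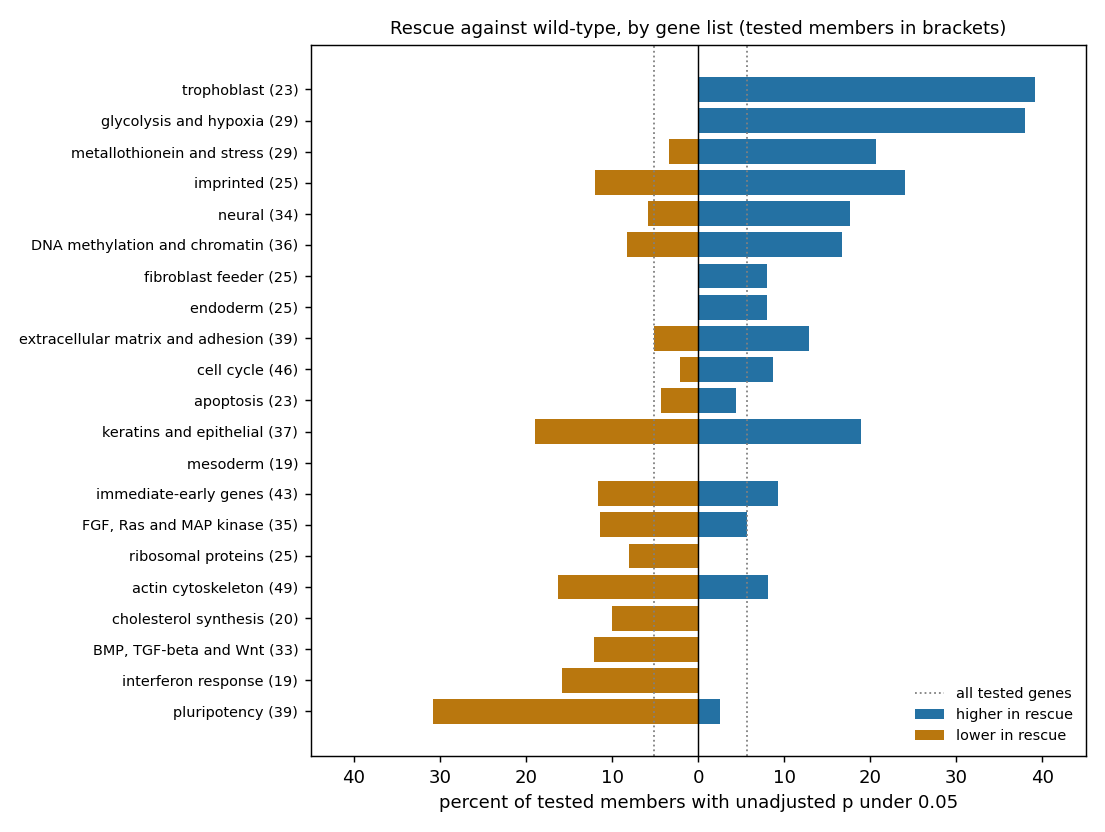
Share of measured members (percent) of 21 gene lists with an unadjusted p under 0.05, by direction of the rescue minus wild-type difference; dotted lines give the shares of all 6764 genes, 5.72% and 5.16%. Trophoblast (9 of 23) and glycolysis and hypoxia (11 of 29) have only higher members past this level. So do endoderm and fibroblast feeder, with 2 of 25 each. Pluripotency has 12 of 39 lower.

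The remaining lists held few calls. Of 37 keratin and epithelial genes 4 were called, all lower (Krt17, Emp1, S100a10 and Cd9). At an unadjusted p under 0.05, 7 were higher and 7 lower, 37.8% of the list against 10.9% of all genes. Of 34 neural genes 1 was called higher (Sox3) and 1 lower (Nkx6-2). Of 35 genes of the FGF, Ras and MAP kinase pathways only Mras was called, and Jak3, a cytokine receptor kinase, had 0.95 (adjusted p = 0.0594). Among 36 genes of DNA methylation and chromatin 0 were called and 9 had an unadjusted p under 0.05, with Dnmt3a, a de novo DNA methyltransferase, at 0.78 (adjusted p = 0.0944) and Tet1, which oxidises methylcytosine, at -1.18 (adjusted p = 0.058). Lists of the extracellular matrix, metallothioneins and stress, BMP, TGF-beta and Wnt, endoderm, mesoderm, feeder cells, cell cycle, apoptosis, cholesterol synthesis, ribosomal proteins and interferon response each had 0 calls, with 0 to 6 higher and 0 to 4 lower members at an unadjusted p under 0.05. Of 5 measured genes of X inactivation and the Y chromosome, Eif2s3y was called.

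The rescue line stood apart from wild-type and Srf-null cells together at 144 probe sets (1.51%), 72 higher and 72 lower (0.753% each); scaling to a common median left 14 higher and 8 lower. In each of them the rescue line lay on the same side of both other lines, which are of unlike Srf genotype. The values are taken against the mean of those 2 lines, so they also hold any gap between wild-type and Srf-null cells. Sat1 and Tsc22d1 were called here and also among the 10 probe sets at which rescue and Srf-null cells both differed from wild-type. Among named genes, the largest gains after Sox3 (3.97) were Igf2 (3.84, adjusted p = 2.38e-05) and Tfap2c (3.39, adjusted p = 0.0237). Krt19 rose by 2.73, Krt18 by 2.54 and Plac8, a placenta-specific protein, by 2.36. The adhesion protein Cd99 rose by 2.17 and Gsn, the actin-severing gelsolin, by 2.15. Igf2, Krt18 and Plac8 were also called lower in the Srf-null line than in wild-type, so that for them the rescue line lay at the far side of wild-type. Against wild-type alone their differences were 1.02, 1.09 and 1.04, and none was called. The largest named losses were Mras (-3.85, adjusted p = 0.000265), Nkx6-2 (-3.29), Krt17 (-2.78) and Myh9 (-2.68). Gbx2 fell by 2.15 (adjusted p = 0.0071), Rab31, a small GTPase of vesicle transport, by 2.14, and Lmo4, a LIM-domain cofactor, by 1.80. Defa23 fell by 2.01 on a probe set of the type that can bind related sequences, and the defensins are a family of near copies. Bmp4, which supports self-renewal with LIF, fell by 1.80 and 0.84 on its 2 probe sets. On the latter its difference was -0.50 against wild-type alone (adjusted p = 0.337), and Srf-null cells were 0.69 above wild-type. Lgals3, galectin 3, lay above wild-type in Srf-null cells (1.25, adjusted p = 0.0143) and below it in rescue cells (-0.66, adjusted p = 0.12).

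Differences between the lines also followed position on chromosome 14. Genes were placed in RefSeq order, and the 116 genes of this chromosome with a mean log2 level above 9 were taken. The last 22 of them, from R3hcc1 to Zic2, had a median difference of -0.64, with 18 of 22 lower in rescue cells, while the 94 before them (Rpp14 to Ppp2r2a) had a median of -0.01. The medians of the 22 at 10, 30, 60 and 180 min were -0.75, -0.62, -0.57 and -0.53. Between the arrays labelled 0 min, which went against their labels, the median was +0.55. Called lower among them were 6 genes, Xpo7, Sucla2 (a subunit of succinyl-CoA synthetase), Tsc22d1, Sugt1, Klf5 and Commd6. Over all 6764 genes 21 were called lower. The probe sets of Xpo7 and Sucla2 are of the type that can bind related sequences. Sucla2 read 2544 to 3172 in wild-type, 2073 to 2409.8 in Srf-null and 1382 to 1637 in rescue cells (-0.94, adjusted p = 0.02), and Commd6 read 1657 to 2062, 1998 to 2205 and 960.9 to 1198 (-0.75, adjusted p = 0.0361). The Srf-null line split this stretch: the first 10 genes (R3hcc1 to Sugt1) had a median of -0.34 in Srf-null and -0.61 in rescue cells, and the last 12 (Diaph3 to Zic2) had 0.25 and -0.67. Bmp4 and Lgals3 lie on chromosome 14 too, before the stretch. With every tested gene taken, dim ones included, chromosome 14 as a whole had a median of -0.03 (243 genes). On that measure the other chromosomes 1 to 19 and X lay between -0.05 and 0.04, around an all-gene median of 0.00, so the whole chromosome did not stand out. Scaling to a common median moved the all-gene median to -0.06 and that of the 22 genes to -0.69. Among 3350 windows of 15 neighbouring genes the lowest median, -0.68, was from Sucla2 to Dock9, and 12 windows of chromosome 14 lay below every window of another chromosome, of which the lowest was -0.30. The ends of the stretch were chosen after its values were seen and no test was made. Chromosome 8, whose 211 genes above the same level had a median of -0.25 in Srf-null against wild-type cells (170 of 211 lower), had a median of -0.04 in rescue cells.

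**Figure D5:**
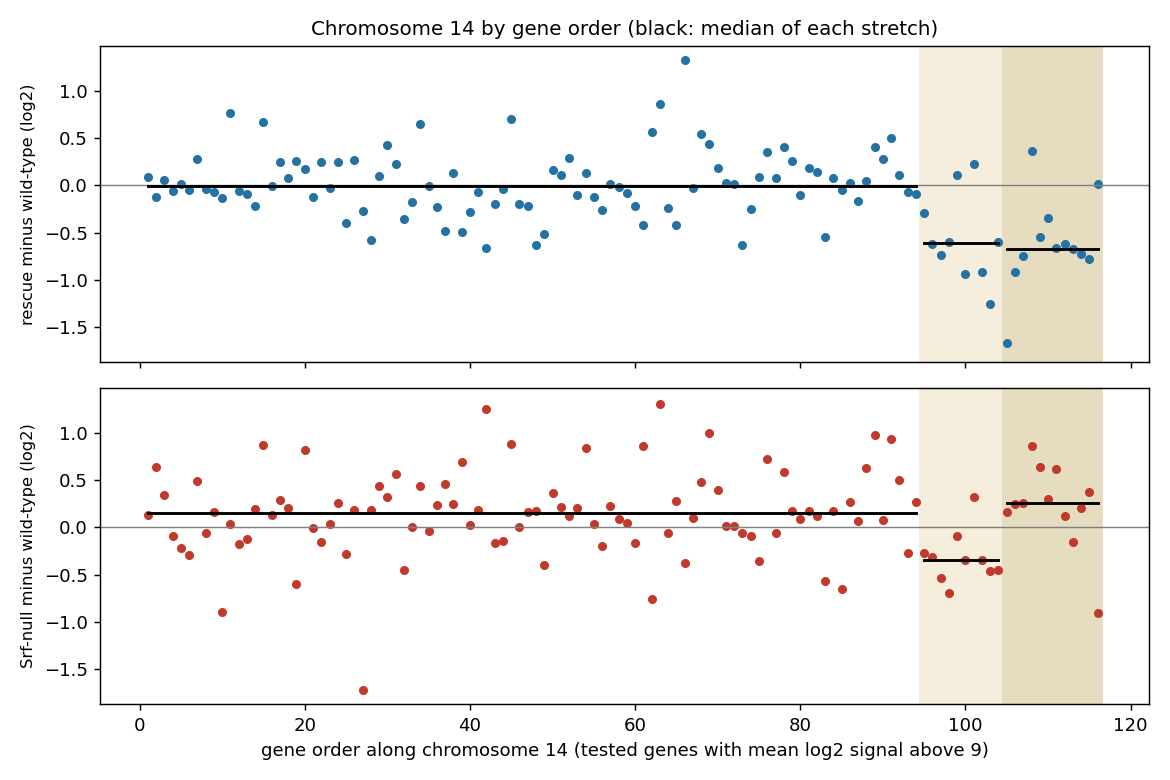
Difference from wild-type (log2, y axis) of 116 genes of chromosome 14 in gene order (x axis), for rescue (top) and Srf-null cells (bottom); shading marks the stretches R3hcc1 to Sugt1 and Diaph3 to Zic2 and black bars their medians. Both stretches are low in rescue cells (-0.61 and -0.67), and the first alone is low in Srf-null cells (-0.34 against 0.25).

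The calls depend on the number of arrays. Leaving out every array of 10, 30 or 60 min left 0 calls between rescue and wild-type cells (833, 639 and 887 at an unadjusted p under 0.05, smallest adjusted p of 0.0796, 0.112 and 0.12) and leaving out 180 min left 12.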

How the data were processed

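Linear intensities of 12654 probe sets, 66 of them array controls, were used as the authors deposited them; software, background correction and scaling were not given in the sources used here. Groups and times came from the sample titles. All 15 arrays were quantile-normalized, values under the 40th percentile (85.0) were set to it, and log2 was taken. Probe sets above this floor on at least 2 of 15 arrays (9558, for 6764 genes by the probe set with the highest mean) were fitted with limma 3.58.1 in R 4.3.3 (lmFit, then eBayes with an intensity trend) to 12 arrays with line and time as terms, leaving 6 residual degrees of freedom. The model assumes the same time effect in each line. The limma p-values test either direction, with Benjamini-Hochberg adjustment. Time is the replicate block, since the titles give the shared time. A call of wild-type against both other lines, or of rescue against both, also required the same direction and an unadjusted p under 0.05 against each line. The difference in early response came from a fit of line by phase (10, 30 and 60, 180 min) with 3 residual degrees of freedom. The p-values measure the spread between single arrays at different times, and nothing in the labels says that they come from separate cultures.

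Probe sets took gene symbols from the platform annotation: 10298 had 1 symbol, 363 had several and were left unnamed, and 1993 were not listed; 10279 symbols were matched to RefSeq by gene ID. Named genes were the 12 largest called differences in each direction between rescue and wild-type, the 8 largest in the other tests, up to 4 members of each list with the smallest p, and a fixed list. The members, the 22 gene lists and the tests were chosen with earlier results of these data known. On simulated arrays for rescue against wild-type the fit recovered 54% of changes of 1 and 89% of changes of 2 on the log2 scale. There were 10 false calls among the unchanged members of the 9558 probe sets. Changes were planted only at probe sets with a mean log2 level above 9, so the recovery does not hold for dimmer ones. The simulated noise was independent between values, without effects shared across an array. The number of arrays limits the precision. Alternatives covered normalization, floor, filter, samples, time term, array quality and each array or time left out. Figures were drawn in Python 3.11.15 with matplotlib 3.10.9.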

Additional observations from a re-analysis of the deposited data

Results flagged for a closer look

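Single arrays were flagged against the other 3 of their line at 13 of 146 groups of 4 checked, under a rule with a nominal rate of 1 in 20. The 4 arrays are different times with FBS and the groups share arrays, so this rate is not a test. A flagged array can follow its time, and a flagged gap can be small where the other 3 lie close, as for Fhl2 and Dnmt3a. In rescue cells the 60 min array was high for Sox3 (4141.2 against 2609 to 2744 on 1 probe set, 3832.4 against 2292 to 2405 on another) and for Peg3 (5837.3 against 2199.7 to 2505). The rescue array at 180 min was high for Tagln (1642.2 against 641.5 to 736.3). It was low for Igf2 (5941.6 against 9338 to 10240.1), as was the wild-type array at 180 min (2640.4 against 4690.1 to 5223), and it was below the floor for Mapt (-59.6 against 617 to 722), which encodes the microtubule protein tau. The rescue array at 30 min was the only rescue array above the floor for Nkx6-2 (125.1), Krt17 (178.6) and Uvrag (198.9), and was higher for Fhl2 (1491.9 against 1371 to 1378) and Dnmt3a (2046.2 against 1786 to 1801). The wild-type array at 30 min was low for Vcl (1588.6 against 2621 to 2848).

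The contrast of 30 and 60 min against 10 min, tested between rescue and wild-type cells as an interaction in limma, passed the threshold at 48 probe sets. Its 10 min side is 1 array for each line. The largest named values, in log2 units and rescue minus wild-type, were on the lower side Sin3b (-2.0135), Sec23a (-1.6373), Clcn4 (-1.522), Slc17a1 (-1.3852), Selenov (-1.3225), Casp4 (-1.295), Pitpnb (-1.2784) and Gucy2e (-1.2678). On the higher side they were Jam3 (3.2651), Tmem222 (3.0871), Btbd17 (2.7107), Adh1 (2.6869), Gp5 (2.666), Zfp943 (2.6259), Plcb3 (2.4375) and Madcam1 (2.3845). Of the 48, 39 had a 10 min array at the floor. The rescue array at 10 min, with 37.4% of values at or below 0, is the 1 baseline array of its line, and its part in these values was not tested.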

How the results depend on the processing

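All 38 probe sets called between rescue and wild-type cells kept their direction under every alternative in which they were measured. The alternatives reuse arrays that had selected the 38, so the kept direction is not evidence of its own. Most alternatives changed how many passed the threshold. Where the construction does not show it (fewer arrays), the cause was not tested. For rescue against wild-type (38), wild-type against both other lines (10) and rescue against both (144), scaling to a common median gave 4, 3 and 22 calls, values as deposited 0, 1 and 7, and all 15 arrays 0, 0 and 28. The share of values at or below 0 as a covariate gave 13, 1 and 70 calls, and that share with the 18S side, added after seeing the data, 25, 0 and 112. Leaving out all arrays of 10, 30, 60 and 180 min gave 0, 0, 0 and 12 calls, then 0, 0, 0 and 2, then 7, 3, 9 and 37. Leaving out single arrays gave 4 to 34, 1 to 6 and 32 to 140. Without the replicate block for time, 60, 22 and 155 were called. The 8 arrays alone gave 0 for rescue against wild-type. For wild-type against both others, no filter gave 6 and a floor at the 35th percentile 3; that floor replaced the planned 20th percentile, which lies below 0 and could not be run. The early response (48) gave 96 under median scaling (87 higher, 9 lower), 30 with a floor at the 60th percentile and 70 at the 35th, of which 21, 1 and 22 were among the 48, and 0 on all 15 arrays (298 at an unadjusted p under 0.05) and 48 to 299 without single arrays. Of 26 named called probe sets, 295 of 752 settings kept the call, 457 lost it and 0 reversed it. List medians stayed within their spread in 47 of 66 settings and chromosome medians in 21 of 60, with 39 moved.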
